A study of Mus musculus with 16 samples.

Results

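The comparison described here is that of status epilepticus (SE) with saline in the hippocampus of control mice, 4 arrays against 4. The 4 arrays came from control mice in which lithium and pilocarpine had induced SE, a seizure that does not stop by itself, and the other 4 from control mice given saline. They were chosen by their titles from the 16 arrays of the series, and the comparison is described across 22180 genes, the probe sets with exactly 1 gene symbol, with the probe set of highest mean standing for a gene that has several. The mice were C57BL/6, 8 to 10 weeks old, with the genotype written in the labels as wild type/ + cre Glia, so that the controls carried a glial cre too. Both groups received lithium chloride (10 mEq/kg), which lowers the seizure threshold, and 18 h later pilocarpine (65 mg/kg), an agonist of muscarinic acetylcholine receptors, or saline. All SE mice and no saline mouse received pilocarpine, so the drug and the seizures cannot be told apart. How long after pilocarpine the tissue was taken is unknown here, as are the promoter that drives the cre, the mice's sex and any hybridisation batch. The remaining 8 arrays came from Astro-D2KO mice (+ Flox D2/ + cre Glia), made to lack the type 2 deiodinase in astrocytes, of which 4 received saline and 4 had SE. Nothing in the labels says more of how the arrays of a group were obtained than 1 mouse per title, so the p-values measure the spread between these arrays.

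Strong synaptic excitation lets calcium into neurons, which activates kinases that act on transcription factors already present, among them CREB and the serum response factor. Within minutes these switch on immediate early genes, many of which encode further transcription factors (Fos, Egr1, Npas4), and later waves follow of neurotrophins, neuropeptides and feedback inhibitors. SE adds a stress response of chaperones, an inflammatory response of glia and endothelium, and, in time, loss of neurons in the hippocampus.

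Values are deposited log2 levels, a difference of 1 being 2-fold. A change is the mean of the SE arrays minus that of the saline arrays, with the standard error of the limma fit after ±, and a gene rose or fell where its Benjamini-Hochberg adjusted p over all 22180 genes was under 0.05. In lists of 4 values, arrays stand in the order of their replicate numbers, 1 to 4. Markers of hippocampal neurons were read for the tissue label. Prox1, a marker of dentate granule cells, stood at 8.71, 8.47, 9.19 and 8.82 in the saline arrays and at 9.24, 8.25, 9.40 and 8.92 in the SE arrays, and Wfs1, a marker of CA1 pyramidal cells, at 9.58, 9.42, 9.69 and 9.60 in the saline arrays and at 9.08, 8.91, 9.40 and 9.69 in the SE arrays. Levels of different probe sets are not comparable, so these values are given only as a record of the markers. Correlations between the 8 arrays across genes ran from 0.972 to 0.993, and no pair of arrays was identical.

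The array labelled control SE replicate 4 stood apart. The first principal component of the 8 arrays, with 51.1% of the variance, separated SE from saline, and the second, with 15.9%, put SE replicate 4 at 25.4 and the other SE arrays between -12.6 and -7.1. Saline replicates 1 and 2 were on the same side as SE replicate 4 (16.5 and 9.7) and saline replicates 3 and 4 on the other (-9.0 and -15.4). Within each group, reactive astrocyte genes were highest in these same arrays. Gfap, the intermediate filament of astrocytes, stood at 10.98, 10.83, 9.87 and 9.65 in the saline arrays and at 10.66, 10.46, 10.46 and 11.35 in the SE arrays, and Cd44, a hyaluronan receptor raised in reactive glia, at 6.85, 6.28, 5.23 and 5.25 in the saline arrays and at 6.05, 6.16, 6.33 and 7.97 in the SE arrays. Neither passed the test. The mean level of the 33 measured reactive astrocyte genes was 7.13, 6.87, 6.46 and 6.48 in the saline arrays and 7.29, 7.20, 7.23 and 8.02 in the SE arrays. SE replicate 4 was also the lowest SE array for Npas4, Fos, Fosb, Egr4, Arc and Nr4a1 and the highest for Serpinb2, the inhibitor of plasminogen activators PAI-2. Serpinb2 stood at 3.56, 3.71, 3.92 and 3.85 in the saline arrays and at 5.13, 4.37, 4.52 and 8.53 in the SE arrays, and its rise (1.88 ± 0.64, adjusted p = 0.0420) was 0.92 and did not pass without that array, nor did it pass without any 1 of the 4 saline arrays, SE replicate 1 or Astro-D2KO saline replicate 1, 2 or 4. Tnc, the matrix protein tenascin-C, stood at 6.73, 6.38, 5.42 and 5.75 in the saline arrays and at 7.04, 6.67, 6.83 and 8.79 in the SE arrays. Its rise of 1.26 ± 0.42 was 0.78 without SE replicate 4 and did not pass, nor did it without saline replicate 2, 3 or 4 or SE replicate 1. The cause of the second component was not tested.

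**Figure D1:**
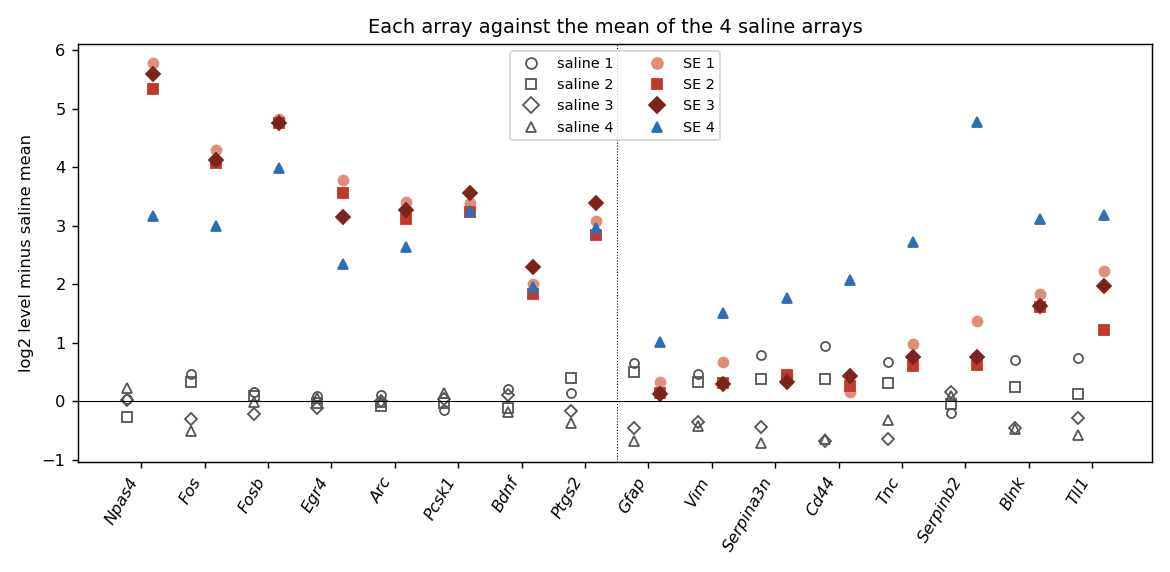
Log2 level of 16 genes in each array minus the mean of the 4 saline arrays; open symbols are saline arrays and filled symbols SE arrays, with the symbol shape giving the replicate number. In SE replicate 4 (blue triangles) Npas4 and Fos lie below the other SE arrays and the genes from Gfap to Tll1 above them.

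In control mice 1867 genes rose (8.42% of those tested) and 3040 fell (13.7%). The rises were the larger changes: 323 genes rose at least 2-fold (1.46%) and 27 fell at least 2-fold (0.122%), while 54 rose and 1 fell at least 4-fold. The median of the rises was 0.54 and that of the falls -0.40, against -0.02 over all genes tested. SE and saline arrays did not overlap for 1571 of the rises (84.1%) and 2523 of the falls (83%). Over all genes tested, 8.46% had every SE array above every saline array and 13.7% every SE array below. The 30 largest rises and 30 largest falls were picked among called genes without overlap, so its absence in those genes was set by the choice. The share of calls differed with level. Of the 2732 genes with a mean under 4, 1.9% rose and 1.1% fell. From 4 to 6 (7239 genes) the shares were 4.49% and 3.63%, and from 6 to 8 (7809 genes) 10.1% and 22.3%. They were 16.6% and 23.9% from 8 to 10 (3822 genes) and 12.1% and 15.9% from 10 upwards (578 genes). Counts given below for lists of genes are to be read beside these shares. With SE replicate 4 left out, 1739 genes rose and 3004 fell. With saline replicates 1 and 2 and SE replicate 4 left out together, 1462 rose and 1897 fell, and 384 rose at least 2-fold; that setting was chosen after the data were seen. Against a minimum change of 1.2-fold (limma's treat) 629 rose and 341 fell.

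**Figure D2:**
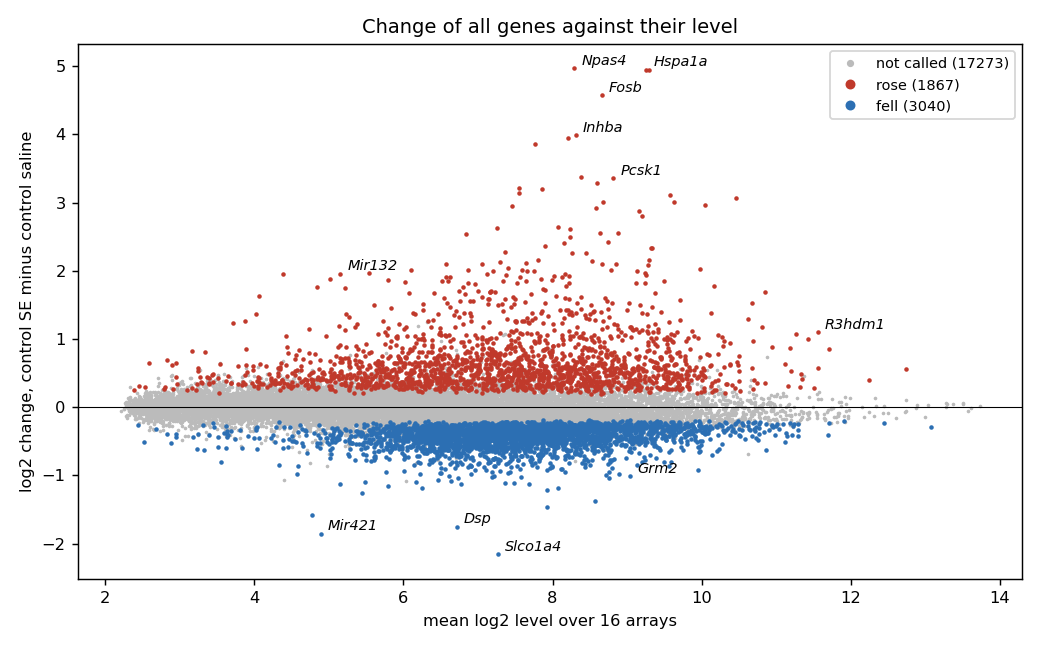
Log2 change of each gene in SE against saline in control mice (vertical axis) by its mean log2 level over the 16 arrays (horizontal axis). Red points are the 1867 genes that rose and blue points the 3040 that fell; the rises reach 4.97 and the falls -2.16.

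Activity-induced transcription factors were among the largest rises. Npas4, a factor of neurons that responds to calcium entry, stood at 5.82, 5.52, 5.81 and 6.02 in the saline arrays and at 11.57, 11.13, 11.39 and 8.96 in the SE arrays. Its rise of 4.97 ± 0.39 (31.4-fold) was 5.57 without SE replicate 4. Fosb, a partner of Jun proteins in the AP-1 factor, stood at 6.53, 6.47, 6.17 and 6.37 in the saline arrays and at 11.20, 11.13, 11.14 and 10.36 in the SE arrays, a rise of 4.58 ± 0.17. Fos, the best known member of that family, stood at 6.27, 6.14, 5.51 and 5.30 in the saline arrays and at 10.09, 9.87, 9.93 and 8.80 in the SE arrays and rose by 3.87 ± 0.33. For all 3 genes the lowest SE array was replicate 4, and it still lay above every saline array. Of 13 measured AP-1 subunits and partners, 9 rose and 0 fell, with a median of 1.15; the share over all genes was 8.42% for rises and 13.7% for falls. They took in Atf3 (3.37 ± 0.18), a stress-induced partner, Fosl2 (2.34 ± 0.13), and Jun (2.03 ± 0.20) and Junb (1.93 ± 0.20), the subunits that Fos proteins pair with.

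Most members of 3 other groups of such factors rose. Egr1, a zinc finger factor, stood at 6.91, 7.15, 6.87 and 7.25 in the saline arrays and at 10.43, 10.50, 10.61 and 9.80 in the SE arrays (3.29 ± 0.15), and Egr4 at 6.07, 5.95, 5.87 and 6.05 in the saline arrays and at 9.76, 9.55, 9.13 and 8.33 in the SE arrays (3.21 ± 0.23). Of 9 measured genes of Egr factors, Nab corepressors, the serum response factor and its cofactors, 7 rose and 1 fell, the fall being of Elk1 (-0.77 ± 0.087), a cofactor of the serum response factor. All 3 Nr4a orphan receptors, nuclear receptors that act without a known hormone, rose: Nr4a1 by 3.01 ± 0.18, Nr4a2 by 2.96 ± 0.26 and Nr4a3 by 2.87 ± 0.22. Among 24 other activity-induced factors 19 rose and 0 fell, with Csrnp1 (2.27), Nfil3 (2.00), Ier2 (1.68), Klf4 (1.48) and Klf6 (1.36) next in size after Npas4 and Fosl2. Fosl2 is counted among the AP-1 subunits and partners too.

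The promoters of 4 of these genes are shown because short motifs for the transcription factors named above can be searched in them. The sequences are the 250 bases before the RefSeq start of each gene on GRCm38.p6, written 5′ to 3′ on the strand of the gene, with each TGACG, the core of the cAMP response element bound by CREB, or its reverse complement CGTCA, in capitals.
Fos (chr12:85473640-85473889, plus strand): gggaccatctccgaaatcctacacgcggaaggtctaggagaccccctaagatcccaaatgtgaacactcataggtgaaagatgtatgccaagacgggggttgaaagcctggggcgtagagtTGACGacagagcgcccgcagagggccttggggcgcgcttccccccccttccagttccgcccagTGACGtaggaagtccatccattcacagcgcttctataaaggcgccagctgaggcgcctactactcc
Fosb (chr7:19310046-19310295, minus strand): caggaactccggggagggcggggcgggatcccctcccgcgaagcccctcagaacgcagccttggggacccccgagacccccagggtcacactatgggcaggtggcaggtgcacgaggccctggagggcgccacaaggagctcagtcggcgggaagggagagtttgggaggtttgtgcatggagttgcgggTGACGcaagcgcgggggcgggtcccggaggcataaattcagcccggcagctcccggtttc
Npas4 (chr19:4989972-4990221, minus strand): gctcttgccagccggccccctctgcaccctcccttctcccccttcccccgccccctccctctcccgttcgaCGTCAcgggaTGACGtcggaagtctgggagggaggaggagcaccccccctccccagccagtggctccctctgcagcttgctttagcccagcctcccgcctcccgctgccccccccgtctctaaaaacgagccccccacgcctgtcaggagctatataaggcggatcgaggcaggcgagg
Nr4a1 (chr15:101266596-101266845, plus strand): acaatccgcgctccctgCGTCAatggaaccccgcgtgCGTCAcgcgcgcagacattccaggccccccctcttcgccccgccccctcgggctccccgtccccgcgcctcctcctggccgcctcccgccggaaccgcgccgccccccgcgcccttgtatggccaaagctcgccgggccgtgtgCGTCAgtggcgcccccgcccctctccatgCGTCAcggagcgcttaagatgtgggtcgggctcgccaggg
Fos held 2 such cores, Fosb 1, Npas4 2 and Nr4a1 4. None of the 4 windows held the full element TGACGTCA, the AP-1 motif TGANTCA or a CArG box, the site of the serum response factor, which says only that these letters are not in these windows.

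Promoters were found for 16990 of the 22180 genes, 20611 promoters in all. On either strand TGACG occurred in 41.5% of the 289 promoters of genes that rose at least 2-fold, in 29.7% of the 1529 promoters of genes that rose less, in 23.4% of the 3154 promoters of genes that fell and in 20.8% of all promoters. The full TGACGTCA, which contains TGACG, occurred in 7.27% of the promoters of genes that rose at least 2-fold, 2.06% of those of genes that fell and 2% of all. The CArG box occurred in 4.15% of promoters of genes that rose at least 2-fold, 0.793% for genes that fell and 1.3% of all. For TGANTCA the shares were 9.34%, 3.65% and 6.37% in the same order. A heat shock element, the motif of heat shock factors, was searched in a fixed form. That exact form occurred in 0%, 0.349% and 0.432% in the same order, and in neither the Hspa1a nor the Hspa1b promoter printed below. Imperfect forms of the element were not searched, so these values do not show that the promoters lack it. The median GC content was 60.8% for genes that rose at least 2-fold, 58.8% for genes that fell and 55.6% for all, and its part in the TGACG shares was not tested.

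Genes that act at synapses or restrain the signal rose with these factors. Arc, which removes AMPA receptors from synapses, stood at 8.10, 7.91, 8.00 and 7.97 in the saline arrays and at 11.40, 11.11, 11.25 and 10.63 in the SE arrays, a rise of 3.11 ± 0.17 (8.61-fold). Homer1, whose short form uncouples metabotropic glutamate receptors from their scaffold, rose by 2.34 ± 0.13. Nptx2, a pentraxin that clusters AMPA receptors, rose by 2.55 ± 0.32, and Pcdh8, a protocadherin that moves cadherin into the cell, by 2.26 ± 0.21. In all, 17 of 20 measured synaptic effectors rose and 0 fell, with a median of 1.52. Of 17 activity-induced small GTPases and their regulators 13 rose and 0 fell, among them Rnd3 (1.82), Rasd1 (1.62), Rasgef1b (1.58) and Gem (1.55); Arc and Errfi1 are counted on this list too.

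Inhibitors of kinase pathways were among the rises. Dusp1, a phosphatase that inactivates MAP kinases, stood at 7.43, 7.31, 7.14 and 7.54 in the saline arrays and at 10.08, 10.03, 10.22 and 9.33 in the SE arrays (2.56 ± 0.20). Dusp5 (2.26), Dusp6 (2.16) and Dusp4 (2.12), of the same family, rose by similar amounts, and 8 of the 14 measured members rose and 1, Dusp18 (-0.69), fell. Sik1, a kinase that holds the coactivators of CREB out of the nucleus, stood at 7.06, 6.82, 6.92 and 6.99 in the saline arrays and at 9.52, 9.15, 9.50 and 9.25 in the SE arrays, with a rise of 2.41 ± 0.11 and an adjusted p of 4.07e-10. Errfi1 (2.10), an inhibitor of EGF receptors, and Spry2 (2.01), an inhibitor of signalling from growth factor receptors to Ras, rose too. The smallest adjusted p of all genes, 2.56e-13, was that of Pcsk1, described with the neuropeptides, and the next was 1.97e-11 for Fosb. Others among the 10 smallest were those of Egr1, Sik1, Homer1, Arc, Atf3, Ptgs2, Fosl2 and Zdbf2. Zdbf2, an imprinted gene, stood at 6.60, 6.80, 6.78 and 6.94 in the saline arrays and at 9.35, 9.18, 9.24 and 8.84 in the SE arrays.

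**Figure D3:**
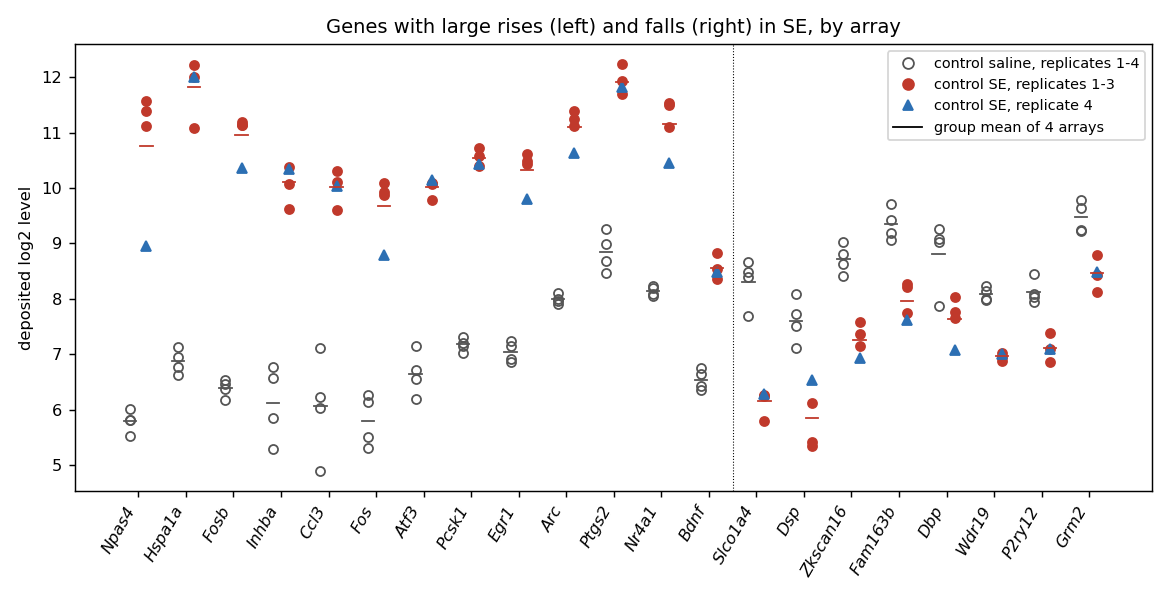
Deposited log2 level of 13 genes with large rises (left of the dotted line) and 8 with large falls (right) in each array, with saline arrays as open grey circles, SE replicates 1 to 3 as red circles and SE replicate 4 as a blue triangle; short lines are means of 4 arrays. For Npas4 the SE arrays lie between 8.96 and 11.57 and the saline arrays between 5.52 and 6.02.

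Many chaperone genes rose. Hspa1a and Hspa1b, which encode nearly the same inducible Hsp70, stood at 6.77, 6.62, 7.14 and 6.96 in the saline arrays and at 12.21, 12, 11.09 and 12 in the SE arrays for the former and at 6.80, 6.80, 7.25 and 6.83 in the saline arrays and at 12.25, 12.02, 11.26 and 11.90 in the SE arrays for the latter. Their rises of 4.95 ± 0.32 and 4.94 ± 0.33 were close to each other. The copies lie side by side on chromosome 17. Their upstream sequences, shown to compare the copies, were the same at 247 of 250 positions, with the other 3 in capitals. These bases lie before the start of each gene, so they do not show whether the probes tell the pair apart.
Hspa1a (chr17:34972157-34972406, minus strand): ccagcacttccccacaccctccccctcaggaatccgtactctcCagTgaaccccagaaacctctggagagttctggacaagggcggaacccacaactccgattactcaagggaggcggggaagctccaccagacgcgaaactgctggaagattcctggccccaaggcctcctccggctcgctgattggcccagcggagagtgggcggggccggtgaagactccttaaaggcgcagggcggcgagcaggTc
Hspa1b (chr17:34959239-34959488, minus strand): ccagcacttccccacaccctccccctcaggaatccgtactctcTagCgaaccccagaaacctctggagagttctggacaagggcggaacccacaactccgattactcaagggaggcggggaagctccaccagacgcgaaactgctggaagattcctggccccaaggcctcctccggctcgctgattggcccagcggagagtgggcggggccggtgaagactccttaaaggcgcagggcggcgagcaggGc
Cross-binding between the probes of the copies could not be checked here, so the pair may be 1 signal. Of the 29 measured heat shock proteins and co-chaperones 16 rose and 0 fell. Dnajb1, the partner of Hsp70 that delivers substrates, rose by 2.11 ± 0.21, Bag3, its nucleotide exchange factor, by 1.96 ± 0.20, and Hsph1, a large Hsp110 chaperone, by 1.30 ± 0.16. The integrated stress response, with the unfolded protein response, gave 14 rises and 1 fall among 32 genes, with Hspa5, the chaperone of the endoplasmic reticulum, at 1.13 ± 0.089 and Ppp1r15a, which restores translation after stress, at 1.00 ± 0.13.

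Genes that stop the cell cycle or respond to damage made a further group, with 12 of 23 risen and 2 fallen. Gadd45g stood at 7.68, 7.49, 6.53 and 6.73 in the saline arrays and at 10.76, 9.93, 9.76 and 10.04 in the SE arrays (3.02 ± 0.33), and Gadd45b at 8.49, 7.90, 7.40 and 7.11 in the saline arrays and at 10.75, 10.49, 10.37 and 10.50 in the SE arrays (2.80 ± 0.30); both proteins bind stress-activated kinase partners. Cdkn1a, the cyclin-dependent kinase inhibitor p21, rose by 2.09 ± 0.33, and Btg2 by 2.00 ± 0.18. Replication and division genes gave 1 rise, Pcna (1.52 ± 0.22), the sliding clamp of DNA polymerases, and 2 falls, of the helicase genes Mcm6 (-0.62 ± 0.10) and Mcm7 (-0.44 ± 0.089), among 24. Chromatin modifiers gave 9 rises and 4 falls among 26, led by Kdm6b (1.99 ± 0.22), a demethylase of histone H3 lysine 27, Arid5b (1.68 ± 0.17) and Tet3 (1.36 ± 0.20), an enzyme of DNA demethylation. The falls of that list dropped from 4 to 1 without SE replicate 1 and to 2 without saline replicate 1. Over all genes 8.42% rose and 13.7% fell. The shares were 52.2% and 8.7% for the growth arrest and damage genes. For chromatin modifiers they were 34.6% and 15.4%, so the share of falls was near that of all genes. Replication and division genes, at 4.17% and 8.33%, lay below both shares of all genes. Zfp36, which marks cytokine mRNAs for decay, rose by 2.96 ± 0.38, from 7.03, 6.34, 5.62 and 5.21 in the saline arrays to 9.03, 9.13, 9.39 and 8.47 in the SE arrays.

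Several secreted signals of neurons rose. Pcsk1, the protease that cuts prohormones into active peptides, had tight groups of arrays, at 7.03, 7.15, 7.21 and 7.32 in the saline arrays and at 10.57, 10.41, 10.73 and 10.43 in the SE arrays, a rise of 3.36 ± 0.094. Nts, the precursor of neurotensin, stood at 6.41, 6.93, 6.77 and 6.71 in the saline arrays and at 9.69, 9.15, 9.0 and 9.52 in the SE arrays (2.64 ± 0.24). Adcyap1, the precursor of PACAP (1.90), Scg2, a granin of dense-core vesicles (1.69), Tac1, the precursor of substance P (1.56), and Pdyn (1.51) and Penk (1.26), precursors of opioid peptides, rose with them. Of 44 measured neuropeptide genes 16 rose and 4 fell. Npy, neuropeptide Y, did not pass, at 10.26, 9.48, 8.79 and 8.86 in the saline arrays and at 8.78, 9.03, 8.61 and 10.47 in the SE arrays; its highest SE array was replicate 4 and its highest saline array replicate 1. Bdnf, the neurotrophin best known to follow neuronal activity, stood at 6.75, 6.43, 6.64 and 6.36 in the saline arrays and at 8.54, 8.37, 8.83 and 8.49 in the SE arrays, a rise of 2.01 ± 0.12. Among 12 measured neurotrophins and receptors 5 rose, with Vgf (1.14), Ntrk2, the receptor of Bdnf (0.78), and Gdnf (0.71), and 1 fell.

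Inhba, the activin subunit that neurons make after strong activity, stood at 6.57, 6.77, 5.84 and 5.28 in the saline arrays and at 10.08, 9.62, 10.39 and 10.35 in the SE arrays and rose by 3.99 ± 0.30 (15.9-fold). The activin, TGF-beta and BMP genes gave 11 rises and 2 falls among 36, with the inhibitory Smad7 (1.42) and Tgfb2 (0.97) next in size. Thbs1, thrombospondin 1, a matrix protein that promotes synapse formation, stood at 5.17, 5.51, 5.85 and 5.60 in the saline arrays and at 8.81, 7.64, 7.90 and 7.96 in the SE arrays (2.55 ± 0.21). Acan, the proteoglycan aggrecan of perineuronal nets, rose by 2.13 ± 0.17. FGF and VEGF genes gave 9 rises and 1 fall among 21; Fgfr2 (1.03) and Vegfa (0.74) rose and Fgfr3 (-0.87), a receptor of astrocytes, fell.

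Some inflammatory genes rose. Ccl3, a chemokine made by microglia, stood at 6.23, 7.11, 4.90 and 6.03 in the saline arrays and at 10.12, 9.61, 10.30 and 10.04 in the SE arrays, a rise of 3.95 ± 0.41. Its saline arrays spread more widely than its SE arrays, and the groups did not overlap. Of 32 chemokines and receptors 9 rose (28.1%) and 3 fell (9.38%), against 8.42% and 13.7% of all genes. The 3 falls were down to 1 without saline replicate 2 or 4 or SE replicate 3 or 4. Ccl2 (0.81 ± 0.15) and Ccl4 (0.72 ± 0.14), attractants of monocytes and macrophages, rose less than Ccl3. Il1a, interleukin 1 alpha, rose by 1.46 ± 0.23, Il6 by 0.82 ± 0.12, from levels of 2.96, 2.99, 2.71 and 3.03, and Tnf by 0.66 ± 0.15. Socs3, the feedback inhibitor of gp130 cytokines (1.5), and Osmr, the receptor of oncostatin M (1.58), rose too. They were among the 10 rises (23.8%) and 1 fall (2.38%) in 42 interleukin and gp130 genes. The rises were 6 without saline replicate 3.

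Receptors and regulators of innate immunity also gave calls. Cd14, the co-receptor of endotoxin, stood at 6.12, 6.02, 5.52 and 5.96 in the saline arrays and at 7.94, 7.86, 7.91 and 7.97 in the SE arrays, a rise of 2.01 ± 0.15, and its SE arrays lay closer together than its saline arrays. Toll-like receptors and adaptors gave 7 rises (28%) and 1 fall (4%) among 25, against 8.42% and 13.7% of all genes. NF-kB subunits and their inhibitors gave 9 (40.9%) and 4 (18.2%) among 22, with Rel (1.23) and the NF-kB regulators Nfkbiz (0.91) and Nfkbia (0.88) among the rises. Tnfrsf23, a decoy receptor of the TNF family, stood at 6.15, 6.02, 5.86 and 5.75 in the saline arrays and at 9.46, 8.22, 9.53 and 9.16 in the SE arrays (3.15 ± 0.22). Interferon genes gave 1 rise (2.86%) and 5 falls (14.3%) among 35, so the share of falls was near the 13.7% of all genes. The falls were 3 without saline replicate 1 or 2 or SE replicate 1 or 3. The median of the interferon genes was 0.04, of the opposite sign to the larger count. Ptgs2, the inducible cyclooxygenase that makes prostaglandin precursors, stood at 8.99, 9.25, 8.68 and 8.48 in the saline arrays and at 11.93, 11.69, 12.23 and 11.82 in the SE arrays (3.07 ± 0.16), and Ptger4, a receptor of prostaglandin E2, rose by 0.72 ± 0.16. Hmox1, heme oxygenase 1 (1.51 ± 0.34), and Slc7a11, a cystine transporter (0.89 ± 0.23), are protective against oxidants and rose as well. In all, antioxidant enzymes and targets of the factor NRF2 gave 4 rises (17.4%) and 2 falls (8.7%) among 23, with a median of -0.02.

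Markers of glial cells moved in both directions, and in whole tissue fewer cells of a type and less RNA per cell cannot be told apart. P2ry12, the ADP receptor of resting microglia, stood at 7.94, 8.03, 8.45 and 8.08 in the saline arrays and at 7.38, 7.09, 6.85 and 7.10 in the SE arrays, a fall of 1.02 ± 0.17. Selplg (-0.83 ± 0.13) and P2ry13 (-0.67 ± 0.13) fell too, and so did the fractalkine receptor Cx3cr1 (-0.36 ± 0.12), a call lost without any 1 of saline replicates 1, 2 and 4 and SE replicates 2, 3 and 4. By contrast Tmem119 (-0.16 ± 0.12), Csf1r (-0.23 ± 0.11) and Aif1 (-0.08 ± 0.10), which also mark microglia, did not pass. In all 1 of 20 microglia markers rose and 6 fell, and their mean level was between 7.18 and 7.42 in the saline arrays and between 6.97 and 7.21 in the SE arrays. Astrocyte markers gave 1 rise and 4 falls among 21, with 1 fall without SE replicate 4 and 2 without saline replicate 2 or 3. The 4 falls were 19%, against 13.7% of all genes and 23.9% of those with a mean from 8 to 10. Of the 33 reactive astrocyte genes 9 rose and 0 fell, with a median of 0.63. Emp1 (1.85 ± 0.39), a membrane protein, Osmr and Cd14 rose, and Gfap, Vim (0.69 ± 0.31), Serpina3n (0.74 ± 0.39) and Cd44 did not pass. Oligodendrocyte markers gave 0 rises and 1 fall among 20, and Mbp, myelin basic protein, had a difference of -0.01 ± 0.095.

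Vascular genes held the largest fall. Slco1a4, which carries organic anions and thyroid hormone across brain endothelium, stood at 7.69, 8.49, 8.40 and 8.67 in the saline arrays and at 6.24, 6.27, 5.80 and 6.28 in the SE arrays. Every SE array lay below every saline array, and it fell by 2.16 ± 0.21 (4.47-fold). Slc22a8, another organic anion transporter of the barrier (-1.04 ± 0.24), and Abcg2, an efflux pump (-0.69 ± 0.12), fell, while Cdh5 (1.41 ± 0.17), the cadherin of endothelial junctions, Apold1 (1.76 ± 0.24), an activity-induced endothelial gene, and the glucose transporter Slc2a1 (0.66 ± 0.091) rose. Cldn5 (0.14 ± 0.14), the claudin of the barrier, did not pass. Of 35 endothelial and barrier genes 9 rose and 7 fell, the falls being 2 without saline replicate 3 or SE replicate 3, 3 without saline replicate 2 and 4 without SE replicate 2. Pericyte and smooth muscle markers gave 1 rise and 5 falls among 16, led by Atp13a5 (-1.08 ± 0.13) and Vtn (-0.91 ± 0.13). The shares were 25.7% risen and 20% fallen for endothelial and barrier genes and 6.25% and 31.2% for pericyte and smooth muscle markers. Over all genes they were 8.42% and 13.7%. Both lists had mean levels between 6 and 8, where 10.1% of all genes rose and 22.3% fell. Choroid plexus and ependymal genes varied between arrays without a call in the limma test (0 of 14, and 0 at an unadjusted p under 0.05), with Ttr, transthyretin of the choroid plexus, at 7.90, 9.44, 13.09 and 9.63 in the saline arrays and at 12.74, 9.08, 9.14 and 11.26 in the SE arrays. Blood cell markers gave 2 rises among 9, with mean levels from 4.62 to 4.74 in the saline arrays and from 4.84 to 5.0 in the SE arrays; their part in the inflammatory rises was not tested.

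Neuronal markers were called in both directions. In all 2 of 14 pan-neuronal markers rose, the neurofilament genes Nefl (0.86 ± 0.12) and Nefm (0.70 ± 0.097), and 2 fell. Of 17 dentate granule cell markers 0 rose and 6 fell (35.3%). The share was 13.7% over all genes, and 22.3% and 23.9% for genes with a mean from 6 to 8 and from 8 to 10. Dsp, desmoplakin, stood at 7.11, 7.51, 8.08 and 7.72 in the saline arrays and at 6.11, 5.41, 5.35 and 6.53 in the SE arrays, a fall of 1.75 ± 0.29, and Lct, which encodes lactase, at 6.32, 6.43, 7.69 and 7.37 in the saline arrays and at 6.09, 5.36, 5.80 and 5.80 in the SE arrays, a fall of 1.19 ± 0.30. C1ql2 (-0.96 ± 0.20), a synaptic organiser of mossy fibres, fell as well, while Prox1 (0.15 ± 0.20) did not pass. CA1 markers gave 0 calls among 10 in the limma test (1 at an unadjusted p under 0.05), and those of CA2 and CA3 1 rise and 2 falls among 16. Striatum markers gave 5 rises and 1 fall among 10, of which Tac1 and Penk are also on the neuropeptide list, and neocortex markers 3 rises and 1 fall among 14; their part in the neuropeptide rises was not tested.

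Genes of transmission and excitability differed by list. Grm2, a presynaptic metabotropic glutamate receptor, stood at 9.64, 9.78, 9.23 and 9.24 in the saline arrays and at 8.12, 8.80, 8.44 and 8.49 in the SE arrays, a fall of 1.01 ± 0.16. The T-type calcium channel gene Cacna1h stood at 9.48, 9.49, 8.99 and 8.68 in the saline arrays and at 8.20, 7.93, 8.02 and 8.35 in the SE arrays and fell by 1.03 ± 0.16. The SE and saline arrays of Grm2 and Cacna1h did not overlap, which was a condition for naming them among the largest falls. Calcium, sodium and HCN channels gave 1 rise and 9 falls among 29 (31% fallen, against 13.7% of all genes). Potassium channels gave 3 rises and 8 falls among 58 (13.8% fallen) and glutamate receptors and scaffolds 3 and 6 among 42 (14.3%). The release machinery gave 0 and 7 among 38 (18.4%). The mean levels of these lists lay between 7.7 and 9.3. Of all genes with a mean from 6 to 8, 22.3% fell, and from 8 to 10, 23.9%. The calcium, sodium and HCN channels lay above these shares and the other lists below. The potassium channel rises were 6 without saline replicate 1 and 5 without SE replicate 3. The release machinery falls were 3 without saline replicate 3 and 4 without saline replicate 2 or 4 or SE replicate 1 or 3. Endocannabinoids are lipids that act back on presynaptic CB1 receptors, and their genes gave 0 rises and 4 falls among 13 (30.8% fallen). The mean level of this list was between 7.85 and 8.13 over the arrays. The falls were of Napepld (-0.99 ± 0.15), which makes anandamide, Faah (-0.67 ± 0.11), which degrades it, and Mgll (-0.46 ± 0.11) and Dagla (-0.31 ± 0.079), which degrade and make the lipid 2-AG. GABA and chloride genes gave 3 rises and 3 falls among 23, the falls being 1 without saline replicate 3. The rises were of Glra2 (1.12 ± 0.18), a glycine receptor subunit, Gabra2 (0.76 ± 0.12), a GABA receptor subunit, and Gad1 (0.73 ± 0.13), which makes the transmitter. Of the 5 muscarinic receptors, on which pilocarpine acts, Chrm1 fell (-0.36 ± 0.12) and Chrm4 rose (0.41 ± 0.13), while Chrm2 (0.42 ± 0.17), Chrm3 (0.31 ± 0.13) and Chrm5 (0.09 ± 0.27) did not pass. Both calls were lost without saline replicate 1, 2 or 3 or SE replicate 2 or 3, and that of Chrm4 also without SE replicate 1.

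Sets of genes with 1 cellular task each were read against the 13.7% of all genes that fell. At higher levels more genes fell, 22.3% of those with a mean from 6 to 8 and 23.9% from 8 to 10. Of 32 genes of intraflagellar transport and the BBSome, which carry cargo in the primary cilium, 23 fell and 2 rose, with a median of -0.33. Wdr19, part of the complex that returns cargo to the cell body, stood at 7.98, 7.99, 8.23 and 8.14 in the saline arrays and at 6.89, 7.02, 6.96 and 7.01 in the SE arrays, a fall of 1.12 ± 0.098. Ttc26 (-0.89 ± 0.20), Ift46 (-0.76 ± 0.079), Bbs2 (-0.64 ± 0.091) and Ift88 (-0.28 ± 0.071) fell by less, and Cc2d2a (-1.01 ± 0.076), a protein of the gate at the base of the cilium that is not in this set, fell by about as much as Wdr19. Without saline replicates 1 and 2 and SE replicate 4, 19 of the 32 fell.

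The falls of mitochondrial genes were small. Of the 33 complex I subunit genes 17 fell and 0 rose (median -0.24), with Ndufs3 at -0.57 ± 0.078, and of the 71 mitochondrial ribosomal protein genes 28 fell and 0 rose (median -0.24), with Mrpl34 at -0.62 ± 0.085. Succinate dehydrogenase and complex III gave 4 falls among 13, a count of 1 without saline replicate 2 or SE replicate 1 and of 2 without SE replicate 4 or Astro-D2KO saline replicate 2 or 4, and ATP synthase subunits 3 among 18. The 17 cytochrome c oxidase subunits gave 0 calls in the limma test (3 at an unadjusted p under 0.05), and the 64 cytosolic ribosomal protein genes 0 rises and 3 falls (median -0.02), a count of 0 without saline replicate 1, SE replicate 3 or SE replicate 4 and of 1 without saline replicate 2 or 3. Without SE replicate 3 the mitochondrial ribosomal falls were 18, and without saline replicates 1 and 2 and SE replicate 4 they were 8, the complex I falls 8, and the falls of complexes II and III and of ATP synthase 1 each.

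Zinc finger genes with numbered names, many of them coding for repressors with KRAB domains, gave 112 falls and 20 rises among 398, with a median of -0.17. The falls were 28.1%, against 22.3% of all genes with a mean from 6 to 8, where the mean level of this list lay. Zkscan16 stood at 8.41, 8.62, 8.82 and 9.02 in the saline arrays and at 7.37, 7.15, 7.59 and 6.94 in the SE arrays, a fall of 1.46 ± 0.16, and Zfp975 at 6.25, 6.04, 5.88 and 5.89 in the saline arrays and at 4.83, 4.82, 4.11 and 5.29 in the SE arrays, a fall of 1.25 ± 0.19. Zfp948 (1.66 ± 0.14) and Zfp711 (1.34 ± 0.11) rose. With saline replicates 1 and 2 and SE replicate 4 left out 72 fell. Clustered protocadherins, adhesion proteins that give neurons their surface identity, gave 10 falls and 0 rises among 23 (median -0.36), with Pcdhb13 at -0.57 ± 0.12, and 6 falls with those arrays left out. Olfactory receptor genes, which the hippocampus hardly expresses, gave 16 rises and 11 falls among 1105; the rises were 9 without SE replicate 3, and the falls 5 without SE replicate 3 and 7 without SE replicate 1, 2 or 4.

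**Figure D4:**
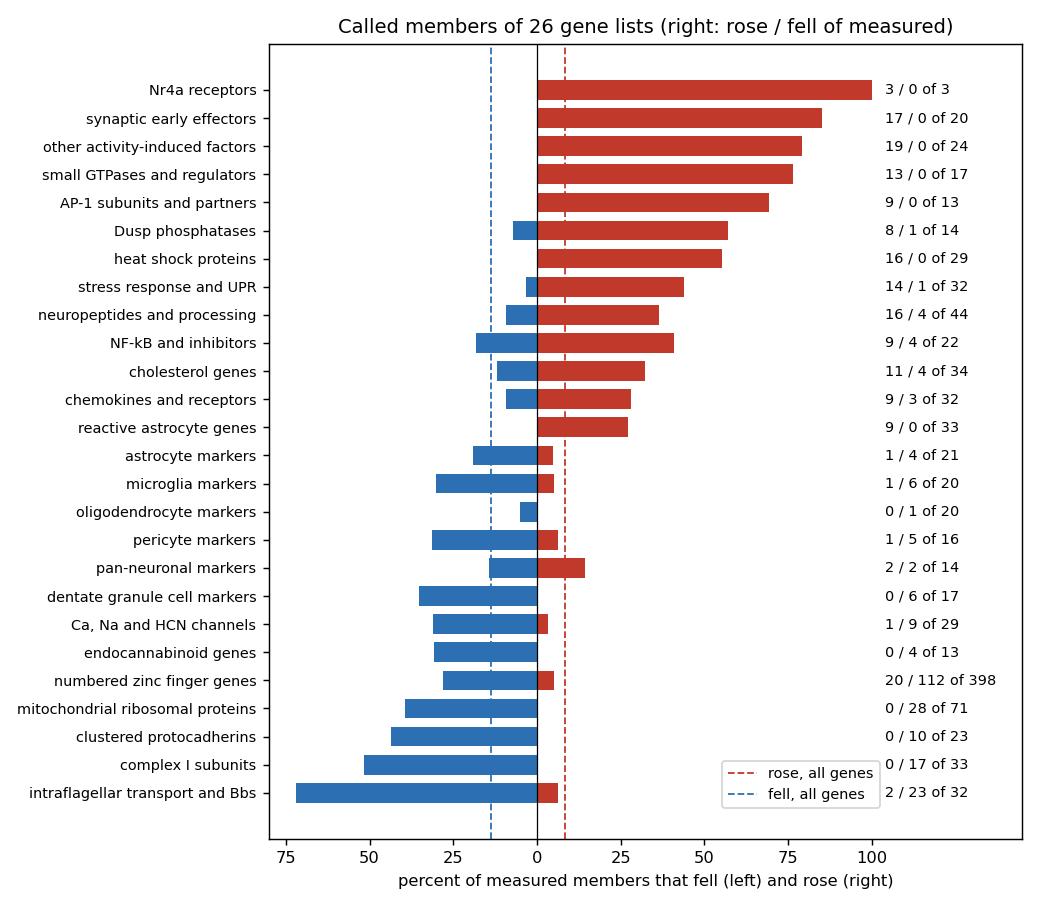
Percent of the measured members of 26 gene lists that rose (red, right) and fell (blue, left) in SE against saline in control mice; dashed lines are the shares over all genes, 8.42% and 13.7%, and the counts stand at the right. The first lists, such as the synaptic effectors with 17 of 20, lie far to the right of the dashed line, and intraflagellar transport, with 23 of 32, far to the left.

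Genes of the clock, of hormones and of metabolism were called too. Nfil3, a repressor of the clock output, and Per1 (1.37 ± 0.15), a repressor in its core, rose, and Dbp, an activator of the output, stood at 7.88, 9.03, 9.09 and 9.27 in the saline arrays and at 8.03, 7.76, 7.66 and 7.08 in the SE arrays, a fall of 1.18 ± 0.28. Saline replicate 1 lay below SE replicate 1 for Dbp, so the groups overlapped. Sgk1 (1.13 ± 0.20) and Pdk4 (0.82 ± 0.16), targets of the glucocorticoid receptor, rose. In cholesterol metabolism 11 of 34 genes rose and 4 fell, with Ch25h (1.60 ± 0.20), which makes 25-hydroxycholesterol, and Pmvk (1.42 ± 0.13), Msmo1 (1.15 ± 0.087) and Cyp51 (1.09 ± 0.099), enzymes of synthesis. Slc2a3 (1.01 ± 0.083), which carries glucose into neurons, and Slc16a1 (1.39 ± 0.14), which carries lactate, rose, while Pfkl (-0.69 ± 0.12), a phosphofructokinase, fell. Sat1 (1.62 ± 0.13) and Odc1 (1.01 ± 0.27), which break down and make polyamines, rose. Iron and heme genes gave 5 falls and 0 rises among 12; the falls were 2 without saline replicate 1 or 2 or SE replicate 3, and 3 without saline replicate 3 or SE replicate 1 or 2.

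Of 467 measured microRNA genes 51 rose (10.9%) and 18 fell (3.85%), against 8.42% and 13.7% of all genes. Their mean level ran from 5.04 to 5.24 over the arrays. Of all genes with a mean from 4 to 6, 4.49% rose and 3.63% fell, so the share of falls was near that of genes at this level. MicroRNAs are short RNAs cut from hairpins that lower the output of mRNAs matching their seed, bases 2 to 8 of the mature strand. The array reads labelled cDNA of total RNA, so signal of the hairpin, of its longer precursor and of the mature strand cannot be told apart. The mature strands of 10 microRNA genes described below are shown so that their seeds can be compared; 2 pairs of them share a seed. They were taken from RefSeq on GRCm38.p6, where 389 of the 467 measured microRNA genes had a hairpin, and are written 5′ to 3′ with the seed in capitals.
Mir132, miR-132-3p (chr11:75173723-75173744, plus strand): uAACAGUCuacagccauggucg
Mir212, miR-212-3p (chr11:75173443-75173464, plus strand): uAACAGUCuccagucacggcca
Mir29a, miR-29a-3p (chr6:31062673-31062694, minus strand): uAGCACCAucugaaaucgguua
Mir128-1, miR-128-3p (chr1:128202404-128202424, plus strand): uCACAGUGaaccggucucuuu
Mir128-2, miR-128-3p (chr9:112118644-112118664, minus strand): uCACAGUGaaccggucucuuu
Mir421, miR-421-5p (chrX:103572966-103572986, minus strand): cUCAUUAAauguuuguugaau
Mir374b, miR-374b-5p (chrX:103573112-103573133, minus strand): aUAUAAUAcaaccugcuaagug
Mir495, miR-495-3p (chr12:109718795-109718816, plus strand): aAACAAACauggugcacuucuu
Mir376a, miR-376a-3p (chr12:109723824-109723844, plus strand): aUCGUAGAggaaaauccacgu
Mir668, miR-668-3p (chr12:109734774-109734797, plus strand): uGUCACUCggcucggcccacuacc
The strands of miR-132-3p and miR-212-3p have the seed AACAGUC in common, and Mir128-1 and Mir128-2 give the same mature strand.

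Mir132 and Mir212, neighbours on chromosome 11 that CREB is known to induce, rose together. Mir132 stood at 3.77, 4.42, 3.97 and 4.37 in the saline arrays and at 6.19, 5.70, 6.44 and 6.02 in the SE arrays, a rise of 1.95 ± 0.22 (3.87-fold). Mir212 stood at 5.92, 6.11, 5.89 and 5.87 in the saline arrays and at 8.19, 7.52, 7.94 and 7.44 in the SE arrays, a rise of 1.83 ± 0.17. No SE array overlapped a saline array for either gene. Mir29a stood at 3.18, 3.45, 3.54 and 3.17 in the saline arrays and at 4.75, 5.90, 5.05 and 5.47 in the SE arrays and rose by 1.96 ± 0.25. Mir128-1 stood at 7.07, 7.14, 6.84 and 7.23 in the saline arrays and at 8.11, 8.36, 9.33 and 7.70 in the SE arrays (1.30 ± 0.25) and Mir128-2 at 5.06, 5.36, 5.02 and 5.29 in the saline arrays and at 5.82, 6.68, 6.49 and 6.17 in the SE arrays (1.11 ± 0.18). Mir1938 rose by 1.55 ± 0.22. Mir128-1 and Mir128-2 lie on chromosomes 1 and 9 within R3hdm1 and Arpp21, which rose by 1.10 ± 0.079 and 0.90 ± 0.11.

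On the X chromosome 2 microRNA genes fell with the long noncoding RNA gene in which they lie. Mir421 stood at 5.81, 5.62, 6.28 and 5.64 in the saline arrays and at 3.38, 4.58, 3.91 and 4.04 in the SE arrays, the second largest fall of all genes called (-1.86 ± 0.24, 3.63-fold). Mir374b stood at 6.15, 6.26, 6.38 and 5.69 in the saline arrays and at 4.71, 5.33, 4.73 and 5.29 in the SE arrays (-1.10 ± 0.22). Ftx, their host, which takes part in X inactivation, stood at 8.35, 8.37, 8.53 and 8.40 in the saline arrays and at 7.27, 7.75, 7.45 and 7.50 in the SE arrays, a fall of 0.92 ± 0.11. For all 3 every SE array lay below every saline array. Mir872 (-0.98 ± 0.21) and Mir28c (-1.12 ± 0.19) fell as well.

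A large cluster of imprinted microRNA genes on chromosome 12, from Mir379 to Mir409, held 18 of these 51 rises. It was defined by hairpins no more than 10 kb apart and was chosen after values had been seen, so its counts are a description. Of its 30 measured members 18 rose and 0 fell (60%), and all 30 had a positive difference, from 0.09 to 1.15, with a median of 0.50. Among the 437 microRNA genes outside it 33 rose (7.55%) and 18 fell (4.12%), with a median of 0.04. Mir495 stood at 3.84, 4.25, 4.27 and 3.96 in the saline arrays and at 4.85, 5.41, 5.32 and 5.33 in the SE arrays (1.15 ± 0.17), Mir376a at 3.77, 4.01, 3.88 and 3.85 in the saline arrays and at 4.18, 5.37, 5.29 and 4.85 in the SE arrays (1.05 ± 0.22) and Mir668 at 6.13, 6.17, 6.40 and 6.16 in the saline arrays and at 6.94, 6.93, 7.30 and 6.71 in the SE arrays (0.75 ± 0.11). The mean difference of the members from the saline mean was 0.23, 0.66, 0.76 and 0.28 in SE replicates 1 to 4, so replicates 2 and 3 were higher than replicates 1 and 4. The count of 18 was 9 without SE replicate 3, 10 without SE replicate 2, 11 without saline replicate 1 and 12 without saline replicate 3. It was 12 when adjusted over every probe set and 4 under the 1.2-fold minimum.

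The genes around the cluster were not surveyed, and only those named here were read. Rian, the noncoding RNA gene next to it, stood at 10.23, 10.20, 10.33 and 10.47 in the saline arrays and at 10.55, 10.73, 10.60 and 10.46 in the SE arrays (0.28 ± 0.081), a call lost without saline replicate 1 or 2 or SE replicate 2, while Meg3 (0.05 ± 0.11), at the other end of the domain, and Dio3 (0.00 ± 0.11) did not pass. The 7 hairpins from Mir673 to Mir3070b and the 3 from Mir341 to Mir370, which lie on the Meg3 side of the cluster, gave 0 calls in the limma test (3 and 0 at an unadjusted p under 0.05). In Astro-D2KO mice 11 of the 30 members rose in SE and 0 fell, with a median of 0.26.

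**Figure D5:**
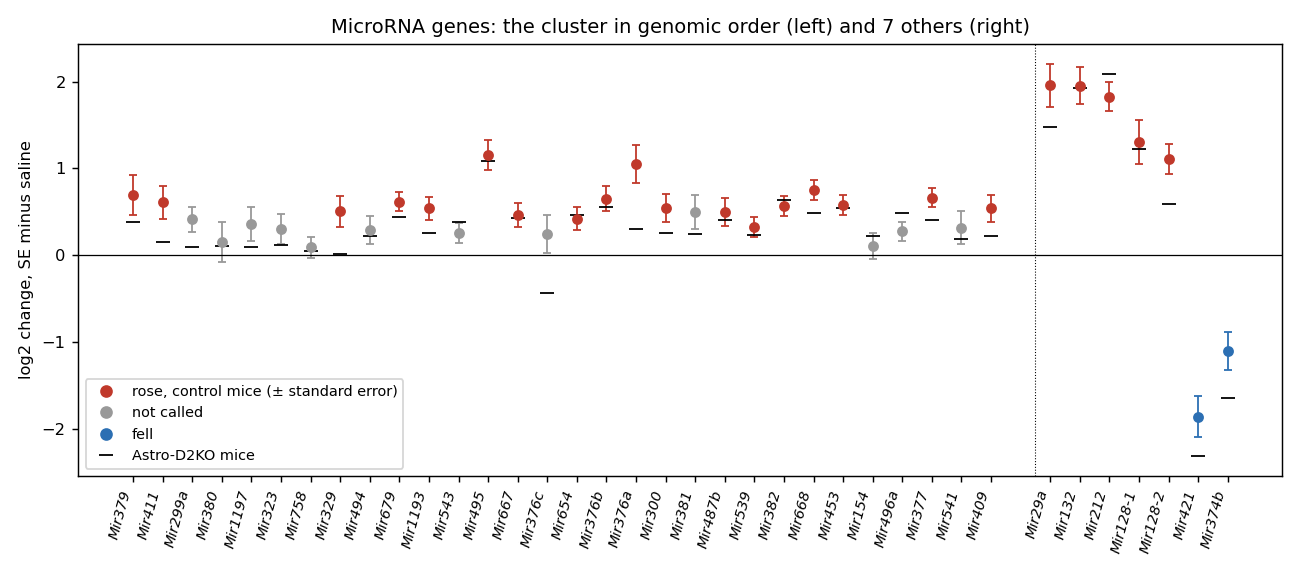
Log2 change in SE against saline of the 30 cluster members in genomic order (left) and of 7 other microRNA genes (right) in control mice, with the standard error of the fit; black dashes are the changes in Astro-D2KO mice. All 30 cluster members lie above 0 in control mice, and Mir421 and Mir374b lie below it in both genotypes.

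The arrays of Astro-D2KO mice, which share no sample with this comparison, gave the same measure in other animals, with the spread per gene estimated over all 16 arrays. Dio2, the gene named in their genotype, stood at 6.75, 6.52, 7.09 and 6.77 in Astro-D2KO saline arrays and 8.91, 7.03, 7.17 and 7.12 in Astro-D2KO SE arrays, against 7.87, 8.25, 8.17 and 8.28 in control saline and 9.51, 9.11, 9.24 and 7.99 in control SE arrays. The saline arrays of the genotypes did not overlap, and the array labelled Astro-D2KO SE replicate 1 lay between the lowest and the highest control SE array. Of the 1867 genes that rose in control mice 1807 (96.8%) had a change of the same direction there, and 1259 (67.4%) rose; over all genes 7.49% rose in Astro-D2KO mice. Of the 3040 that fell 2972 (97.8%) had the same direction and 2008 (66.1%) fell, against 12.6% of all genes. Without Astro-D2KO SE replicate 1 the same direction was found for 1792 of the rises and 2972 of the falls. The calls in both were 75.8% of the rises and 71.8% of the falls called in Astro-D2KO mice. Of the 323 genes that rose at least 2-fold 314 rose there too. Npas4 rose by 4.78 in Astro-D2KO mice, Hspa1a by 4.30 and Mir132 by 1.92, and the change of Slco1a4 was -2.01. A test of the difference between the genotypes' responses (limma, interaction) called 0 of the 22180 genes, with a smallest adjusted p of 0.971, and called 0 without Astro-D2KO SE replicate 1; 1031 genes (4.65%) had an unadjusted p under 0.05. Gucy2c, guanylate cyclase 2C, was among the 10 genes of smallest p, with a difference of 1.17 ± 0.16 in control mice and of 0.26 in the Astro-D2KO mice.

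Of the 1082 genes with several probe sets, 37 had more than 1 probe set called, and 4 of these were called in opposite directions: C2cd4b (1.02 and -0.38), Exoc2 (-0.46 and 0.33), Pi4kb (-0.43, 0.44 and 0.60) and Uhmk1 (-0.23 and 0.42), with the probe set of higher mean first.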

How the data were processed

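Hippocampal total RNA was hybridised as biotinylated cDNA to 16 Affymetrix arrays. The deposited log2 values were made by the authors with RMA, per the submitters' processing notes, which corrects background, normalises by quantiles and summarises probe sets. The base of the log was inferred from a range of 1.70 to 13.79. RMA forces the arrays to 1 distribution, so a shift of all genes cannot be seen. Arrays have no read depth, so their number limits the precision.

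Of 41345 probe sets 23521 had exactly 1 symbol in the platform annotation, 1814 several and 16010 none, and 22180 genes remained, with no filter on level. Limma 3.58.1 (R 4.3.3) fitted 1 mean per group to all 16 arrays with default empirical Bayes moderation; tests were two-sided, with Benjamini-Hochberg adjustment over all genes and a threshold of 0.05. The fit was tested on simulated data. Same-numbered saline and SE arrays were not treated as pairs, since their deviations correlated at -0.16, -0.05, 0.06 and -0.29.

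The comparison and the 90 gene lists (71 by symbol, with 1454 of 1605 symbols measured, and 19 by name pattern) were chosen with earlier results of these data known. Named genes were the 30 largest rises and 30 largest falls called without overlap between arrays, the 10 smallest adjusted p, the 10 largest spreads among SE arrays, up to 6 called members per list with any member that defines it, the 10 smallest p of the difference between genotypes and genes whose probe sets were called in opposite directions; R3hdm1, Arpp21, Ftx, Rian, Meg3, Npy, Chrm2, Chrm3, Chrm5, Cldn5, Vim, Serpina3n, Cd44, Cc2d2a and members of the microRNA cluster and of lists beyond the sixth were added after their values were seen. Motifs were searched in the 250 bases before each RefSeq start. Alternatives were other scalings, filters, probe set summaries, adjustments, weights, a 1.2-fold minimum, a replicate block and leaving out arrays.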

Additional observations from a re-analysis of the deposited data

Results flagged for a closer look

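For the 72 genes of largest change, smallest adjusted p or largest spread, 144 groups of 4 arrays were searched. An array counted if it lay far from the other 3, by its gap to them against the range of the group, and 7 did. The genes were picked in part for a large spread among SE arrays, so this count cannot be set against chance. Over all 4907 called genes control SE replicate 4 lay that far from its group in 2.69%. Each other control array did so in 0.856% to 1.69%. Of the 7 among the 72 genes, 4 were in control SE replicate 4. Npas4 stood at 8.96 there against 11.13 to 11.57 in the other SE arrays, Fosb at 10.36 against 11.13 to 11.20, 4933412O06Rik at 5.21 against 6.13 to 6.21, and Blnk, an adaptor protein of B cell receptor signalling, at 9.30 against 7.80 to 8.02. In control SE replicate 3 Slco1a4 stood at 5.8 against 6.24 to 6.28. In control saline replicate 3 Hspa1b stood at 7.25 against 6.80 to 6.83, and in control saline replicate 4 Spty2d1, a histone chaperone gene, stood at 6.91 against 7.33 to 7.38.

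The comparison above used only probe sets with 1 symbol. In a fit over all 41345 probe sets, 1089 of the 16010 probe sets with no symbol were called in SE against saline in control mice, 615 higher and 474 lower (6.8%), against 17.7% of the probe sets with 1 symbol and 14.2% of those with several.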

How the results depend on the processing

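The counts of 1867 rises, 3040 falls, 323 rises of at least 2-fold and 27 falls of at least 2-fold were followed through 27 alternatives. They stayed within 1.5 times except that the 1.2-fold minimum left 629 rises and 341 falls and that leaving out saline replicates 1 and 2 and SE replicate 4 together, chosen after the data were seen, left 1897 falls. Leaving out 1 of the 16 arrays gave from 1583 to 1893 rises, 2372 to 3078 falls, 299 to 348 rises of at least 2-fold and 21 to 39 falls of at least 2-fold. With the replicate number as a block 1773 genes rose and 2803 fell; the numbers do not pair the samples. Centring each array on its median gave 2148 rises and 2510 falls and moved the median of all genes from -0.02 to 0.01. The difference between genotypes gave 0 genes under each alternative for which it was run. With the mean of a gene's probe sets in place of the highest, the direction reversed, without a call, for Rpl3 (0.21), Pi4kb (0.20) and Uhmk1 (0.094), which fell otherwise. The log base, the genome build of the probe sets and the interval after pilocarpine are unknown here, and 4 arrays per group limit what small changes could be called.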
